A study of Mus musculus with 9 samples.

Results

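The miR-23/27/24 family comes from a pair of paralogous microRNA clusters of the mouse genome, called a and b. The 5 guide strands of these clusters, mmu-miR-23a-3p, mmu-miR-27a-3p, mmu-miR-23b-3p, mmu-miR-27b-3p and mmu-miR-24-3p, were taken by their names in the array files, and are 5 of the 1247 mouse miRNAs on the array. They were followed in the hippocampus of young adult male C57BL/6 mice that received saline or PM2.5, the fine fraction of airborne particles, by oropharyngeal aspiration every other day for 4 weeks. The 3 groups were saline (control), PM2.5 at 1 mg/kg bw and PM2.5 at 5 mg/kg bw, with 3 arrays each. The labels number the arrays of a group as replicates without naming an animal for each. The study describes the control and 5 mg/kg bw arrays as single mice, and for 1 mg/kg bw the source of each array is not given in the sources used here, so the p-values there may measure technical spread. The particles were delivered to the airway, and the tissue was whole hippocampus, in which fewer cells of a type and less RNA per cell cannot be told apart.

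A microRNA is cut from a hairpin precursor, and its guide strand directs a silencing complex to messenger RNAs that pair with its seed, bases 2 to 8. Each cluster carries a miR-23, a miR-27 and a miR-24 hairpin in one primary transcript. The family is best known from endothelium and from lipid metabolism, and in brain the b cluster is known as prominent in astrocytes.

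The mature sequences show which members share targets by seed and which can be told apart by a probe. RefSeq (GRCm38.p6) gave an entry for 4 of the 5 members, and miR-23b-3p is named only. The seed is in capitals, and each sequence runs 5′ to 3′.
mmu-miR-23a-3p: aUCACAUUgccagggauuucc
mmu-miR-27a-3p: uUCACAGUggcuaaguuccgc
mmu-miR-27b-3p: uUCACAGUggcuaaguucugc
mmu-miR-24-3p: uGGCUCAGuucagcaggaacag

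miR-27a-3p and miR-27b-3p shared 1 seed and differed by 1 base in all, C19U, counted from 1 at the 5′ end with the a member first. The seeds of miR-23a-3p and miR-27a-3p differed by 1 base, U7G on the same count with miR-23a-3p first. miR-24-3p has a different seed, and its mature form has the same sequence from both clusters, so its signal could not be divided between them.

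In GRCm38.p6 the a cluster spanned chr8:84208518-84208921 on the plus strand, with Mir23a at chr8:84208518-84208592, Mir27a at chr8:84208672-84208758 and Mir24-2 at chr8:84208815-84208921. No other gene of the RefSeq table overlapped it apart from Mir3074-2, a microRNA gene on the minus strand over Mir24-2. The b cluster spanned chr13:63300484-63301275, also on the plus strand, with Mir23b at chr13:63300484-63300557, Mir27b at chr13:63300712-63300784 and Mir24-1 at chr13:63301208-63301275. It lay inside the span of Aopep, a gene that encodes an aminopeptidase, and Mir3074-1 lay on the minus strand over Mir24-1. The exons of Aopep were not analysed here.

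The array read each member with 2 probes of 16 to 18 bases, each printed in 20 spots. For the 4 members with a RefSeq entry every probe was the complement of a stretch that began between bases 4 and 6 and reached the 3′ end, so the base that separates miR-27a-3p from miR-27b-3p lay inside the probes. The 17-base probes of the paralogs are shown with the base that differs in capitals, because the a and b readings rest on it.
mmu-miR-23a-3p probe: ggAaatccctggcaatg
mmu-miR-23b-3p probe: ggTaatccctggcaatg
mmu-miR-27a-3p probe: gcGgaacttagccactg
mmu-miR-27b-3p probe: gcAgaacttagccactg

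The probes of miR-23a-3p and miR-23b-3p differed by A3T and those of miR-27a-3p and miR-27b-3p by G3A, counted from the 5′ end of the probe with the a member first. The share of a probe's signal that came from the paralog was not tested. The 2 probes of a member followed each other over the 9 arrays, with Pearson's r of 0.92 for miR-27b-3p and 0.98 to 0.99 for the other members. The median coefficient of variation between the spots of a probe was 1.98% to 6.72%.

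Between 410 and 436 miRNAs were detected on an array, no spot was saturated, and 395 miRNAs were detected on all 9 arrays. The neuronal miRNAs miR-124-3p, miR-9-5p, miR-9-3p, miR-128-3p and miR-137-3p were all detected on every array, as is known of brain tissue. The array of 5 mg/kg bw replicate 3 lay alone on a second slide with its own scan, and the other 8 arrays shared a slide. The members' changes at 5 mg/kg bw are therefore given with and without this array below. The passenger strands and the markers are given with it only.

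All 5 members were detected on all 9 arrays. The summed signal of the probes was 1998 to 3030 intensity units for miR-23a-3p, 925.2 to 1428 for miR-27a-3p, 2418 to 3681 for miR-23b-3p, 1001 to 1513 for miR-27b-3p and 3407 to 5606 for miR-24-3p. These signals depend on the probe and do not rank the members. All further values are scaled log2 signals, the log2 of a miRNA's summed signal over the array's 75th percentile of the miRNAs detected on all arrays.

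No shift of the family with dose was shown on these arrays. With limma, 0 of the 5 members had an unadjusted p under 0.05 and 0 had an adjusted p under 0.05 in any of the 3 comparisons, and in 0 of them did the groups of arrays fail to overlap. Both miR-23 members had lower means at each dose than in control, and both miR-27 members and miR-24-3p lay within 0.067 of the control mean on the log2 scale at both doses.

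These counts stand beside all 424 miRNAs tested, which are those with a detection call on every array of 1 or more groups. At 1 mg/kg bw against control, 33 miRNAs (7.78%) had an unadjusted p under 0.05 by limma, 1 (0.236%) had an adjusted p under 0.05, and in 52 (12.3%) the groups did not overlap. The members' median log2 change was -0.067, with 4 lower and 1 higher, and the median of all tested was -0.032. At 5 mg/kg bw against control, 40 (9.43%) had an unadjusted p under 0.05, 0 (0.00%) had an adjusted p under 0.05, and in 68 (16.0%) the groups did not overlap. The members' median was -0.052, again with 4 lower and 1 higher, and the median of all tested was -0.0035. These comparisons share the control arrays.

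Between the doses, 16 of the 424 miRNAs (3.77%) had an unadjusted p under 0.05 by limma, 1 (0.236%) had an adjusted p under 0.05, and in 31 (7.31%) the groups did not overlap. The members' changes from 1 to 5 mg/kg bw ran from -0.032 for miR-23a-3p to 0.028 for miR-24-3p, with a median of -0.021 beside 0.041 for all tested. Their 95% intervals reached from -0.38 to 0.38 on the log2 scale, which is the size of a dose shift that these arrays leave unresolved. The signal of 0 of the 5 members moved between the doses by as much as 1 SD of either group.

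**Figure D1:**
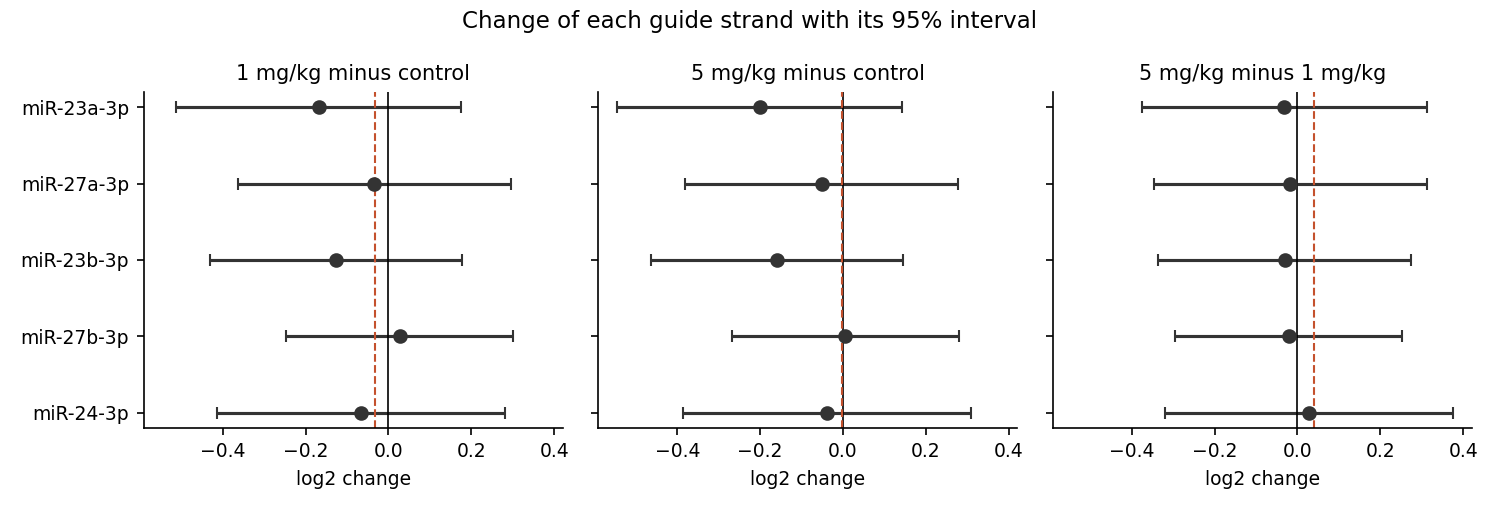
Log2 change of each guide strand (horizontal axis) in the 3 comparisons, with its 95% interval from limma over the 9 arrays. The solid line marks 0 and the dashed line the median of the 424 miRNAs tested. Every interval crosses 0, and the miR-23 members lie farthest to the left in both comparisons with control.

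miR-23a-3p, the a cluster's miR-23, measured 2.41, 2.13 and 2.17 in control replicates 1 to 3. It measured 2.06, 1.86 and 2.28 at 1 mg/kg bw and 1.85, 1.95 and 2.30 at 5 mg/kg bw. Control replicate 1 was the highest of all 9 arrays, and at each dose replicate 3 stood above the other two and inside the control range. Control arrays averaged 2.24 ± 0.15 (SD, n = 3), those at 1 mg/kg bw 2.07 ± 0.21 (SD, n = 3) and those at 5 mg/kg bw 2.04 ± 0.24 (SD, n = 3). Against control miR-23a-3p changed by -0.17 (SE 0.15, 95% interval -0.51 to 0.18, limma adjusted p = 0.826) at 1 mg/kg bw and -0.20 (SE 0.15, 95% interval -0.55 to 0.14, limma adjusted p = 0.698) at 5 mg/kg bw, or 0.870-fold at the higher dose. The exact two-sided permutation test gave p = 0.4 and p = 0.3, where 0.1 is the smallest p that 3 arrays against 3 allow.

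miR-23b-3p, its paralog in the b cluster, measured 2.62, 2.32 and 2.51 in control replicates 1 to 3. It measured 2.33, 2.25 and 2.48 at 1 mg/kg bw and 2.13, 2.25 and 2.58 at 5 mg/kg bw. The order of the arrays resembled that of miR-23a-3p, with replicate 3 the highest at each dose and the groups overlapping. Control arrays averaged 2.48 ± 0.15 (SD, n = 3), those at 1 mg/kg bw 2.35 ± 0.12 (SD, n = 3) and those at 5 mg/kg bw 2.32 ± 0.24 (SD, n = 3). Against control miR-23b-3p changed by -0.13 (SE 0.13, limma adjusted p = 0.865, exact permutation p = 0.3) at 1 mg/kg bw and -0.16 (SE 0.13, limma adjusted p = 0.719, exact permutation p = 0.4) at 5 mg/kg bw.

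miR-27a-3p, the a cluster's miR-27, measured 1.17, 0.92 and 0.94 in control replicates 1 to 3. It measured 0.87, 0.85 and 1.21 at 1 mg/kg bw and 0.79, 0.87 and 1.22 at 5 mg/kg bw. In each group 1 array lay well above the other two, and these 3 high arrays were close to each other. Its changes of -0.035 (SE 0.14, limma adjusted p = 0.948) at 1 mg/kg bw and -0.052 (SE 0.14, limma adjusted p = 0.887) at 5 mg/kg bw were smaller than the SD within any group, which was 0.13 to 0.23 (n = 3 each).

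miR-27b-3p, the b cluster's miR-27, measured 1.18, 0.94 and 1.10 in control replicates 1 to 3. It measured 0.98, 1.08 and 1.25 at 1 mg/kg bw and 0.92, 1.02 and 1.30 at 5 mg/kg bw. The 3 groups overlapped almost fully, and replicate 3 was again the highest at both doses. The log2 change was 0.027 (SE 0.12, 95% interval -0.25 to 0.30, limma adjusted p = 0.948) at 1 mg/kg bw and 0.0054 (SE 0.12, 95% interval -0.27 to 0.28, limma adjusted p = 0.984) at 5 mg/kg bw.

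miR-24-3p, which both clusters make, measured 3.12, 2.79 and 2.94 in control replicates 1 to 3. It measured 2.75, 2.79 and 3.11 at 1 mg/kg bw and 2.73, 2.81 and 3.19 at 5 mg/kg bw. Its lowest and its highest array both belonged to the 5 mg/kg bw group. The log2 change was -0.067 (SE 0.15, limma adjusted p = 0.93) at 1 mg/kg bw and -0.039 (SE 0.15, limma adjusted p = 0.915) at 5 mg/kg bw.

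**Figure D2:**
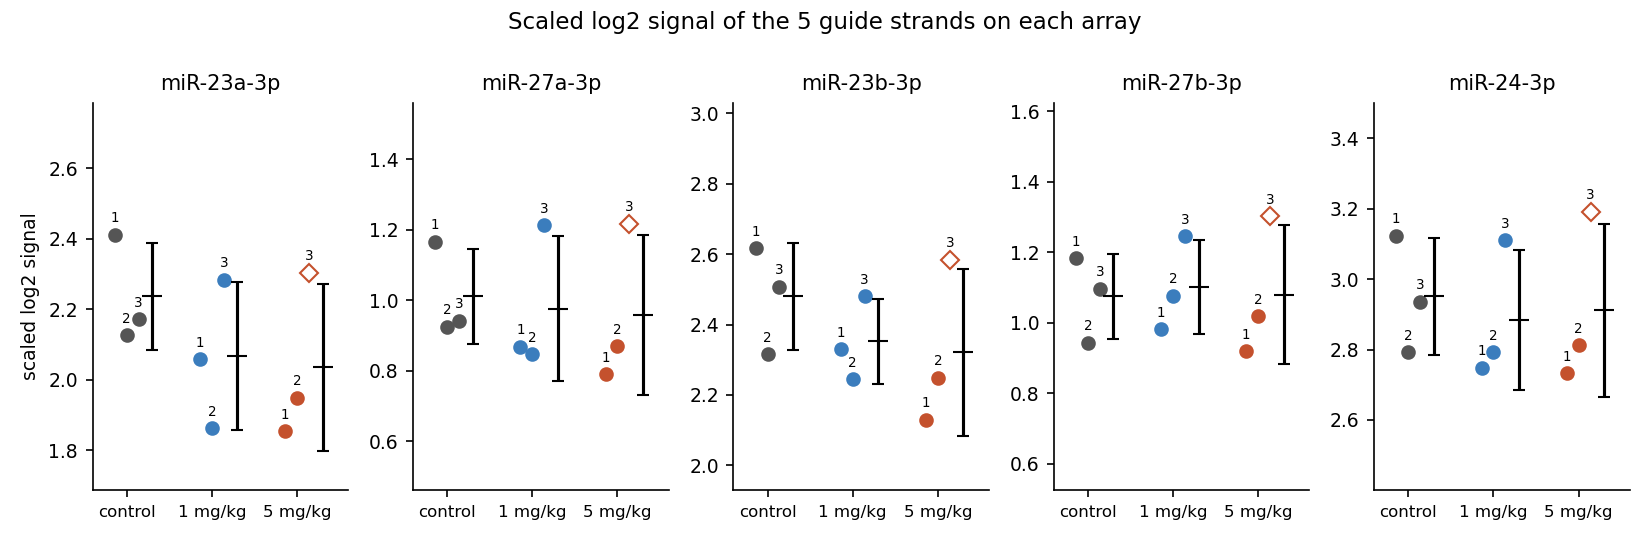
Scaled log2 signal (vertical axis, each panel spanning the same height) of the 5 guide strands in the control, 1 mg/kg and 5 mg/kg groups (horizontal axis). Each point is 1 array with its replicate number, the open diamond is the array on the second slide, and the bar to the right of each group gives its mean ± SD (n = 3). Control replicate 1 and replicate 3 of each dose were the highest array of their group for all 5 members, and the groups overlapped in every panel.

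The miR-23 changes at 5 mg/kg bw depended on which arrays were used. They were smaller without 5 mg/kg bw replicate 1 (-0.11 for miR-23a-3p and -0.063 for miR-23b-3p), without control replicate 1 (-0.11 and -0.091) and with the slide row as a block (-0.071 and -0.038). The row block counts 5 mg/kg bw replicate 3, from the second slide, in the same row as the controls. Within the 5 mg/kg bw group, row and slide therefore cannot be told apart in that block. The miR-23 changes were larger without the array on the second slide. Without 5 mg/kg bw replicate 3, miR-23a-3p measured 1.85 and 1.95 beside 2.13 to 2.41 in control, a log2 change of -0.33 (SE 0.14, limma unadjusted p = 0.0425, adjusted p = 0.172). miR-23b-3p then measured 2.13 and 2.25 beside 2.32 to 2.62 in control, a log2 change of -0.29 (SE 0.11, limma unadjusted p = 0.0339, adjusted p = 0.165). miR-27a-3p, miR-27b-3p and miR-24-3p changed by -0.18, -0.11 and -0.18 and kept unadjusted p-values of 0.207 to 0.355 by limma. So 2 of the 5 members passed the unadjusted threshold downward where 13.7% of all tested did, and 3 of the 5 members, both miR-23 strands and miR-27a-3p, lay below all controls where 25.2% of all tested did. Among the 424 miRNAs 0 had an adjusted p under 0.05 in this fit by limma, and 120 had an unadjusted p under 0.05. The second slide holds 1 array of the 5 mg/kg bw group and no other, so slide and animal cannot be told apart there.

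The arrays also lay in rows of the slide, and the rows were not shared evenly by the groups. In the row that held the 3 controls and 1 mg/kg bw replicate 1, that array lay below the control mean by 0.093 to 0.20 on the log2 scale for the 5 members. In the row of the first slide that held 2 arrays of each dose, the 5 mg/kg bw arrays lay below the 1 mg/kg bw arrays by 0.17 to 0.20 on average. Most of this gap came from 1 mg/kg bw replicate 3, where the mean of the 5 members was 2.067. It was 1.765 on 1 mg/kg bw replicate 2, and 1.685 and 1.78 on the 5 mg/kg bw arrays. No row of the first slide held both control and 5 mg/kg bw arrays.

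The clusters were compared through the difference of each a member from its b paralog on the same array, which cancels the scaling. Only shifts of that difference between groups are given, since the probes' own brightness sets its level. Relative to the control mean, the difference of miR-23a-3p from miR-23b-3p was 0.039, 0.054 and -0.092 in control, -0.028, -0.14 and 0.046 at 1 mg/kg bw, and -0.031, -0.056 and -0.037 at 5 mg/kg bw. The 5 mg/kg bw arrays lay inside the range of the controls. The shift was -0.041 (SE 0.058) at 1 mg/kg bw and -0.042 (SE 0.058, 95% interval -0.18 to 0.10) at 5 mg/kg bw, with exact permutation p = 0.6 and p = 0.4.

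For miR-27a-3p against miR-27b-3p the difference relative to the control mean was 0.046, 0.045 and -0.091 in control, -0.049, -0.17 and 0.031 at 1 mg/kg bw, and -0.065, -0.087 and -0.020 at 5 mg/kg bw. Control replicate 3 and 1 mg/kg bw replicate 2 were the lowest of their groups for both pairs. The shift was -0.061 (SE 0.062) at 1 mg/kg bw and -0.057 (SE 0.062, 95% interval -0.21 to 0.095) at 5 mg/kg bw, with exact permutation p = 0.5 and p = 0.4. Between the doses the shift was -0.0010 for miR-23 and 0.0044 for miR-27, each with exact permutation p = 1. Over the 6 tests the adjusted exact p was 0.9 to 1, so the a and b members were not shown to respond differently, and the intervals reached down to -0.21.

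**Figure D3:**
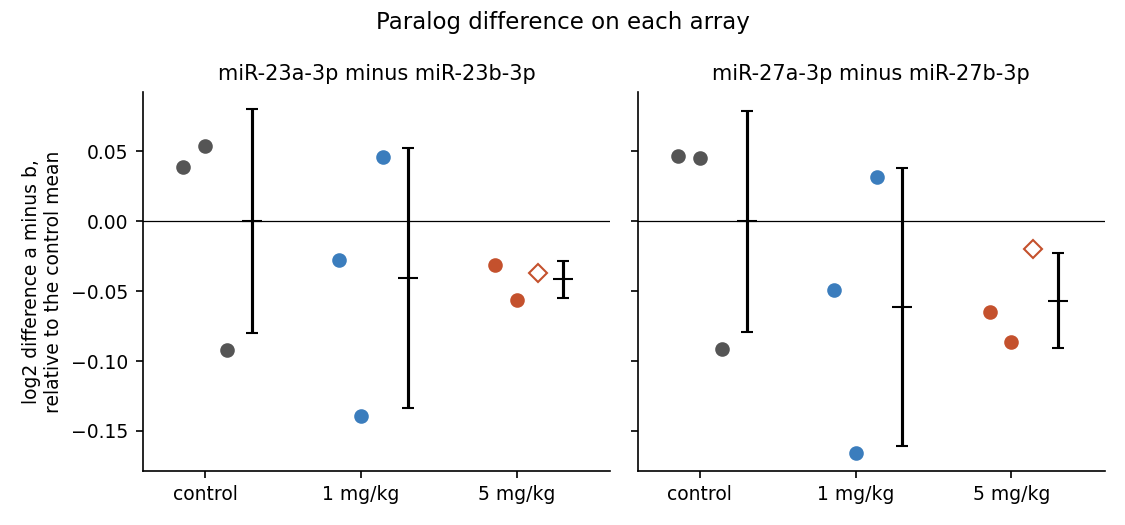
Difference of the scaled log2 signal of each a member from its b paralog, relative to the control mean (vertical axis), in the 3 groups (horizontal axis). Points are arrays, the open diamond is the array on the second slide, and bars give the mean ± SD (n = 3). The 3 arrays of the 5 mg/kg group lie close together and inside the control range in both panels.

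The members varied together from array to array, and the dose groups did not order this variation. Control replicate 1, 1 mg/kg bw replicate 3 and 5 mg/kg bw replicate 3 were the highest of their group for all 5 members, and the mean of the members stood 0.15, 0.19 and 0.26 above the group mean there, while the median of all tested miRNAs deviated by 0.019 or less on these arrays. Control replicate 2 and 5 mg/kg bw replicate 1 were the lowest of their group for all 5. Over the 9 arrays the 10 pairs of members had Pearson's r of 0.74 to 0.97 (median 0.905) and Spearman's rho of 0.77 to 0.97. With the group means removed, r was 0.86 to 0.98. These correlations are a description without a test, because the arrays share slides and scaling and the probes of a and b paralogs differ by 1 base. With quantile normalization the range was -0.097 to 0.89, the lowest being that of miR-23b-3p with miR-27b-3p from the same cluster, so how closely the members follow each other depended on the scaling.

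miR-23a-3p had r = 0.95 with its paralog miR-23b-3p and 0.91 with its cluster neighbour miR-27a-3p. miR-27b-3p had r = 0.91 with its paralog miR-27a-3p and 0.83 with its cluster neighbour miR-23b-3p. The highest value was that of miR-24-3p with miR-27a-3p, r = 0.97, and the lowest that of miR-23a-3p with miR-27b-3p, r = 0.74, which share neither cluster nor family. With the group means removed the cluster neighbours had r = 0.96 in the a cluster and 0.94 in the b cluster, the paralogs 0.94 for miR-23 and 0.93 for miR-27, and the pairs that share neither 0.92 and 0.86. The order of these values was not tested. With the 2 arrays farthest from the median of the first member left out, a choice made after seeing the data, the pairs had r of 0.66 to 0.95 over 7 arrays. Counted alike on both slides, the slide rows hold 5 and 4 arrays, too few for a correlation within a row to be read.

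**Figure D4:**
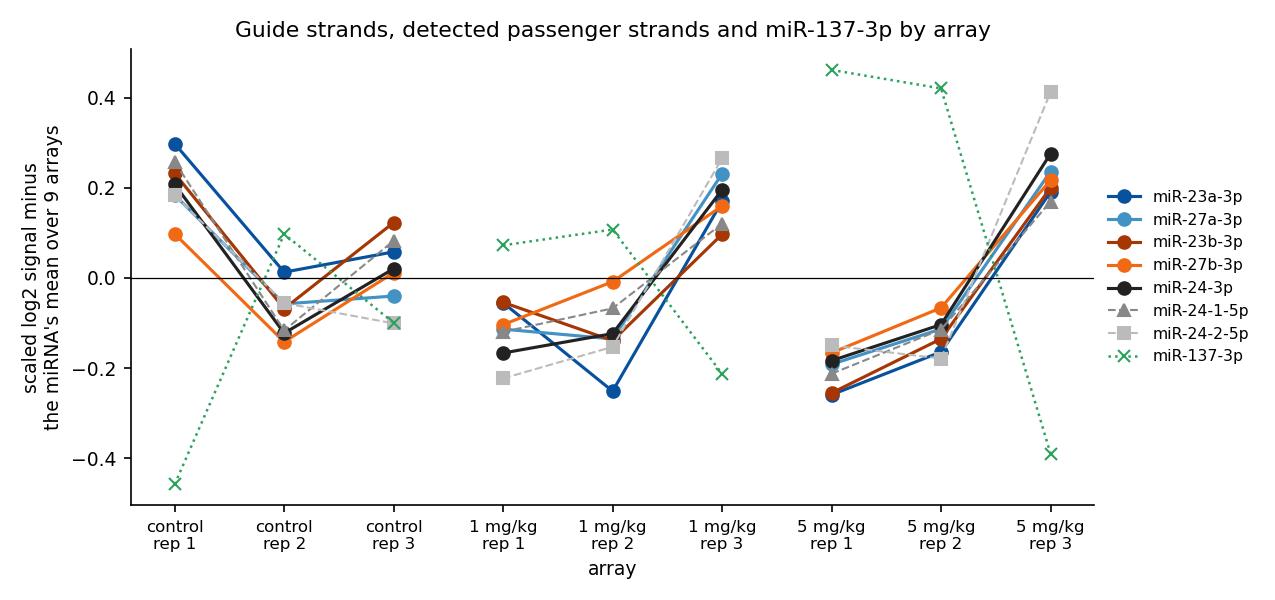
Scaled log2 signal of each miRNA minus its own mean over the 9 arrays (vertical axis), by array (horizontal axis), with lines joining the arrays of a group only to guide the eye. Solid lines are the 5 guide strands, dashed lines the detected passenger strands miR-24-1-5p and miR-24-2-5p, and the dotted line the neuronal miR-137-3p. The guide and passenger strands are high on control replicate 1 and on replicate 3 of both doses, where miR-137-3p is low. This miRNA was drawn after its values were seen. Of the other neuronal miRNAs, miR-124-3p, miR-128-3p and miR-9-3p had r of 0.82, 0.79 and 0.55 with the members' mean, and miR-9-5p -0.093.

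The passenger strands are the other arms of the same hairpins, and each is made from 1 cluster. Whether the probes of the miR-24 passenger strands also read each other's target was not tested. Only those of the miR-24 hairpins were detected, on all 9 arrays, with summed signals of 31.2 to 58.7 intensity units for miR-24-2-5p from the a cluster and 24.8 to 36.7 for miR-24-1-5p from the b cluster. The other 4 of the 6, miR-23a-5p, miR-27a-5p, miR-23b-5p and miR-27b-5p, were detected on 0 of the 9 arrays, as were the 3 entries of miR-3074 from the opposite strand.

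miR-24-2-5p, whose hairpin lies in the a cluster, measured -3.62, -3.85 and -3.90 in control replicates 1 to 3. It measured -4.02, -3.95 and -3.53 at 1 mg/kg bw and -3.95, -3.98 and -3.39 at 5 mg/kg bw. Replicate 3 of each dose stood above every control. Its log2 change was -0.046 (SE 0.19, limma adjusted p = 0.948) at 1 mg/kg bw and 0.019 (SE 0.19, limma adjusted p = 0.966) at 5 mg/kg bw.

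miR-24-1-5p, whose hairpin lies in the b cluster, measured -3.98, -4.35 and -4.15 in control replicates 1 to 3. It measured -4.35, -4.30 and -4.11 at 1 mg/kg bw and -4.45, -4.35 and -4.07 at 5 mg/kg bw. The groups overlapped, with replicate 3 the highest at both doses. Its log2 change was -0.096 (SE 0.13, limma adjusted p = 0.865) at 1 mg/kg bw and -0.13 (SE 0.13, limma adjusted p = 0.784) at 5 mg/kg bw.

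The passenger strands followed the guide strands from array to array. Over the 9 arrays miR-24-2-5p had r = 0.96 with miR-27a-3p, 0.94 with miR-24-3p, 0.89 with miR-27b-3p, 0.80 with miR-23a-3p and 0.77 with miR-23b-3p. miR-24-1-5p had r = 0.96 with miR-23b-3p, 0.94 with miR-24-3p, 0.90 with both a members and 0.89 with miR-27b-3p. No difference between these values was tested.

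Other miRNAs followed the members as closely as the members followed each other. Of the 390 other miRNAs detected on all arrays, the number with r above 0.9 was 18 for miR-23a-3p, 15 for miR-27a-3p, 20 for miR-23b-3p, 9 for miR-27b-3p and 18 for miR-24-3p, while the median r over the 390 was between -0.075 and 0.16. In that order, r was above 0.8 for 50, 49, 53, 40 and 57 of them, and below -0.8 for 57, 51, 60, 40 and 47. The 3 closest to miR-23a-3p were miR-181c-5p, miR-497-5p and miR-106b-5p, with r of 0.96 to 0.98. Closest to miR-23b-3p were miR-3070b-3p, miR-497-5p and miR-30c-2-3p, with r of 0.97 to 0.98. Closest to miR-27a-3p were miR-16-5p, miR-26a-5p and the passenger strand miR-24-2-5p, with r of 0.96 to 0.98. Closest to miR-27b-3p were miR-151-5p, the endothelial miR-126-3p and miR-181a-5p, with r of 0.95 to 0.98, and closest to miR-24-3p were miR-16-5p, miR-26a-5p and miR-30b-5p, with r of 0.96 to 0.99. With no scaling of the arrays these r were 0.96 to 0.99.

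Markers of the cell types in the tissue were read beside this variation. For the 20 marker miRNAs detected on all arrays, r with the mean of the 5 members ran from -0.94 for miR-137-3p, which is enriched in neurons, to 0.84 for miR-126-3p, with a median of -0.035. Such values were not particular to these markers, since each member had r below -0.8 with 40 to 60 of the 390 other miRNAs and above 0.8 with 40 to 57. miR-137-3p measured 2.39, 2.63 and 2.46 on the 3 arrays where the members were highest, and 2.75 to 3.31 on the other 6. The neuronal list did not move as one, since miR-124-3p had r = 0.82, miR-128-3p 0.79, miR-9-3p 0.55 and miR-9-5p -0.093. Of the endothelial pair, miR-126-5p had r = -0.24. The oligodendrocyte miRNAs miR-338-3p, miR-219-2-3p and miR-219-5p had r = 0.77, 0.77 and 0.58. Of the white cell and microglia list, miR-142-3p had r = -0.73, miR-150-5p 0.64, miR-146a-5p 0.19 and miR-223-3p 0.023. The red cell miR-451a had r = -0.46, and the detected smooth muscle and choroid plexus miRNAs had r of -0.34 to -0.14. Whether any of these cell types has a part in the members' variation was not tested.

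Between groups the marker lists moved as follows. The summed scaled signal of the 5 neuronal miRNAs was 165.4 to 186.9 in control, 144.7 to 167.5 at 1 mg/kg bw and 161.8 to 181.4 at 5 mg/kg bw. The endothelial pair summed to 5.48 to 6.02, 5.57 to 6.06 and 5.53 to 6.34 in the same order, and the vascular smooth muscle and pericyte list, with 2 of its 4 miRNAs detected on every array, to 0.471 to 0.557, 0.531 to 0.694 and 0.517 to 0.567. The choroid plexus list, with 3 of 6 detected on every array, reached 5.54 to 8.92 at 1 mg/kg bw, above its 3.23 to 5.04 in control, and 2.99 to 5.74 at 5 mg/kg bw. Most of this sum was miR-204-5p, which alone measured 5.16 to 8.45 at 1 mg/kg bw and 2.975 to 4.69 in control. Of the 5 miRNAs of the list that were tested, 4 were higher at 1 mg/kg bw than in control. The other, miR-211-3p, changed by -0.046 (limma adjusted p = 0.943). The oligodendrocyte list was 4.14 to 6.04, 5.08 to 6.35 and 2.89 to 6.74. The red cell list, with 1 of its 4 miRNAs detected on every array, was 2.91 to 3.71, 2.99 to 3.52 and 3.79 to 4.10. Nearly all of this was miR-451a, which alone measured 2.87 to 3.66 in control and 3.73 to 4.03 at 5 mg/kg bw. The white cell and microglia list, with 4 of 5 detected on every array, was 1.01 to 1.02, 0.940 to 1.06 and 1.02 to 1.11. With limma 0 miRNAs of any of these lists had an adjusted p under 0.05 in any comparison. At an unadjusted p under 0.05 by limma, miR-204-5p and miR-204-3p of the choroid plexus list and miR-143-3p of the smooth muscle list were higher at 1 mg/kg bw than in control. At 5 mg/kg bw these were miR-451a of red cells and miR-142-3p of white cells and microglia, both higher. Between the doses there were 6. Of these, miR-204-5p, miR-204-3p, miR-211-5p and miR-448-3p of the choroid plexus list were lower at 5 mg/kg bw, and miR-451a and the neuronal miR-9-5p were higher. Over all 424 miRNAs tested, the shares at this threshold were 7.78%, 9.43% and 3.77% in the 3 comparisons. Whether the lists exceeded these shares was not tested.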

How the data were processed

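Hippocampal RNA was read on 9 one-colour Agilent mouse miRNA arrays (version 19.0). The authors scanned them and extracted intensity values with Agilent Feature Extraction 10.7 (submitters' processing notes), without normalization between arrays. A log2 table that the authors deposited, normalized by a method not given in the sources used here, served as an alternative. Processed signals without outlier spots were averaged per probe and summed per miRNA, and scaled so that the 75th percentile of the 395 miRNAs with a detection call on every array was equal between arrays. Values below an array's lowest detected signal were set to that floor before the log2. The 424 of 1247 miRNAs that every array of some group detected entered 1 limma fit (version 3.58.1, R 4.3.3) of the 3 groups, and p-values were adjusted by Benjamini-Hochberg over all 424. Exact two-sided permutation tests were run for the members, their other strands and the paralog differences.

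The members, marker lists and tests were chosen with earlier results of these data known. Named miRNAs are the members, the other strands of the clusters, the 3 most alike to each member, and marker miRNAs. miR-137-3p was drawn in a figure after its values were seen. The fit was tested on simulated data: in 20 simulations for 5 mg/kg bw against control in which 40 of 424 miRNAs rose by 1 (log2), the adjusted p was under 0.05 for 90.5% of them. That rise is larger than any member's change, and smaller rises were not simulated. The share found does not apply to shifts of the members' size. The alternatives were other summaries, scalings, filters, blocks and tests, and each array left out. With 3 arrays per group the precision is limited, and how far probe noise adds to the spread between arrays was not tested. Deviations of same-numbered arrays of the 2 doses had r of 0.140 to 0.394 over 424 miRNAs. Those of control and a dose had r of -0.648 to 0.738. Arrays of different number were not compared, so a pairing by number was not shown, and the labels do not state one.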

Additional observations from a re-analysis of the deposited data

How the results depend on the processing

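The number of members at an adjusted p under 0.05 (limma) was 0 under all alternatives in all 3 comparisons. The number at an unadjusted p under 0.05 was 0 except at 5 mg/kg bw against control, where it was 2 with the slide as a block, and 0 to 2 with 1 array left out, the 2 coming without 5 mg/kg bw replicate 3. That array is alone on its slide, so the slide block amounts to leaving it out and is not a separate check. The members' changes are small, and many signs turned. The cause was not tested. In the row block, the array on the second slide counts in the row of the controls. At 1 mg/kg bw miR-27a-3p was 0.0011 with scaling over all miRNAs, 0.017 with quantile normalization, 0.021 in the deposited table, 0.041 with the slide row as a block, 0.075 unscaled and 0.10 with the files' total gene signal. miR-24-3p was then 0.0058 with the row as a block, 0.043 unscaled and 0.073 with total gene signal, and miR-23b-3p 0.011 with total gene signal. At 5 mg/kg bw miR-27a-3p was 0.024 with the row as a block, 0.062 unscaled and 0.10 with total gene signal, and miR-24-3p 0.034, 0.075 and 0.12. miR-27b-3p was -0.038 with the brightest probe, -0.033 with array weights and -0.11 with the slide as a block. Without scaling, and with total gene signal, the median of all tested shifted too, to 0.078 and 0.10 at 1 mg/kg bw and to 0.11 and 0.14 at 5 mg/kg bw, and the members' medians of 0.043, 0.073, 0.062 and 0.10 lay below it each time. Between the doses miR-27a-3p was 0.00018 with total gene signal, miR-27b-3p 0.0097 with quantile normalization, and miR-24-3p -0.0069 with it, -0.023 in the deposited table, -0.011 with array weights and -0.11 with the slide as a block.

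With 1 array left out, the change at 1 mg/kg bw ran from -0.28 to -0.065 for miR-23a-3p, -0.21 to -0.060 for miR-23b-3p, -0.15 to 0.043 for miR-27a-3p, -0.045 to 0.087 for miR-27b-3p and -0.18 to 0.020 for miR-24-3p. At 5 mg/kg bw it ran from -0.33 to -0.11, -0.29 to -0.063, -0.18 to 0.033, -0.11 to 0.086 and -0.18 to 0.051 for the same members. Between the doses it ran from -0.17 to 0.075 for miR-23a-3p, -0.15 to 0.10 for miR-27a-3p, -0.16 to 0.064 for miR-23b-3p, -0.13 to 0.059 for miR-27b-3p and -0.11 to 0.14 for miR-24-3p. The miR-23 shift of a against b ran from -0.087 to 0.0089 at 1 mg/kg bw, -0.088 to -0.015 at 5 mg/kg bw and -0.050 to 0.042 between the doses. The miR-27 shift ran from -0.11 to -0.0090, -0.10 to -0.034 and -0.048 to 0.051 in the same order. The miR-23 shift was 0.029 with quantile normalization and 0.087 in the deposited table at 1 mg/kg bw, and 0.035 in that table at 5 mg/kg bw. The miR-27 shift between the doses was -0.049 with quantile normalization, -0.043 in the deposited table and -0.014 with the slide as a block.

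The median r of the 10 pairs was 0.679 with quantile normalization, 0.949 without scaling, 0.917 over the 5 arrays of the first slide row and 0.978 over the 4 of the second, too few to be read, and, in choices made after seeing the data, 0.851 without the 2 farthest arrays and 0.880 to 0.927 without 1 array. With the replicate block, miR-23a-3p changed by -0.20 at 5 mg/kg bw as without it, and no member's call changed. Between the doses the block took the miRNAs at an unadjusted p under 0.05 (limma) from 16 to 15. Against control it took them from 33 to 36 and from 40 to 36. Over all tested miRNAs, the number at an unadjusted p under 0.05 ran from 11 to 49, 21 to 120 and 8 to 35 with 1 array left out in the 3 comparisons. With no filter it was 780 of 1247 at 1 mg/kg bw, where undetected miRNAs sit at each array's floor. The cause of the other moves was not tested.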
